A study of Mus musculus with 20 samples.

Results

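Esrrb, Tfcp2l1, Tbx3, Zfp42, Nr0b1, Nr5a2 and Prdm14 are 7 transcription factors of the naive pluripotent state, the state of the epiblast before implantation and of mouse embryonic stem cells in culture. They were chosen by gene symbol, and every probe set annotated to 1 of these symbols alone was taken, which gave 18 of the 45037 probe sets tested. The 7 genes stand beside 18193 genes measured in all. Transcript levels were measured on 20 mouse Affymetrix arrays in 6 groups, and the study asked how far pluripotent cells grown from adult germline stem cells resemble other pluripotent cells and the cells they came from.

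The gPS cells (germline pluripotent stem cells, 5 arrays) grew out of GSC cultures of Oct4-GFP transgenic mice, strain B6;CBA-Tg[Pou5f1-EGFP]2Mnn/J (OG2). About 1000 GSC were plated per well on fibroblast feeders, round colonies bright for GFP appeared after 3 to 4 weeks, and these were expanded on feeders in embryonic stem cell medium. The GSC (germline stem cells, 3 arrays), their source, carried the same transgene and were kept on fibroblast feeders with GDNF, bFGF, EGF and LIF. Their donors are described only as adult. The ESC_like cells (3 arrays) came from testes of mice at postnatal day 0 to 2, were provided by another laboratory and were kept under embryonic stem cell conditions on feeders with LIF. Their strain is not given unambiguously in the labels. The ESC (embryonic stem cells, 3 arrays) were all of the RW4 line, on feeders with LIF, so that cell type, line and strain cannot be told apart in this group. The NSC (neural stem cells, 3 arrays) were derived from Olig2-GFP embryonic stem cells, and the MEF (embryonic fibroblasts, 3 arrays) came from C3H embryos at E12.5 and are of the cell type that served as feeders. The labels do not say that replicates were separate cultures, so the p-values cover no more than the spread between these arrays, and their small number limits the precision.

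In naive mouse cells several of these factors bind the enhancers of one another and of Pou5f1, Nanog and Sox2. Several help to hold the cells in self-renewal under LIF, Wnt and low FGF signalling. Esrrb, Nr5a2 and Nr0b1 are nuclear receptors, Tfcp2l1 acts downstream of LIF and Stat3, Tbx3 is a T-box factor, Zfp42 (Rex1) is a zinc finger protein widely used as a reporter of the naive state, and Prdm14 restrains FGF signalling and DNA methylation. Most of them fall when the epiblast moves on towards lineage commitment. Prdm14 is also needed for the formation of primordial germ cells.

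Promoter windows of 250 bases before the gene start were available for 5 of the 7 genes from RefSeq (GRCm38.p6). The windows of Zfp42, Nr0b1 and Nr5a2 are shown because these genes behaved most differently between gPS and GSC cells or between gPS cells and ESC. Both strands of all windows were searched for the octamer ATTTGCAT of Oct4-type factors, the nuclear receptor core site AGGTCA and the Sox-type site ACAAAG, and no matches overlapped. Capitals mark the octamer in Zfp42 and the nuclear receptor core site in Nr0b1 and Nr5a2. All are written 5′ to 3′ along the gene. Zfp42 lies at chr8:43307010-43307259 on the minus strand, Nr0b1 at chrX:86191525-86191774 on the plus strand, and the more upstream of the Nr5a2 windows at chr1:136960449-136960698 on the minus strand.
Zfp42: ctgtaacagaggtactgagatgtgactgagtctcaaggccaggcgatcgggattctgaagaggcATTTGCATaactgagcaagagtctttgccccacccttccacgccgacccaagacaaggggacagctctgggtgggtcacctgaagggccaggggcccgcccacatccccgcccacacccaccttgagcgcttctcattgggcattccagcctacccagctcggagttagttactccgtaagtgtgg
Nr0b1: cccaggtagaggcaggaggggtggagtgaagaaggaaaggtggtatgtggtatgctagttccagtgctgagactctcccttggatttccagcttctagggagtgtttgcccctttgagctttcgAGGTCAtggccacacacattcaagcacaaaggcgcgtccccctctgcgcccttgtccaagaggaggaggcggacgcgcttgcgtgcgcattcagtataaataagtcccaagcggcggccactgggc
Nr5a2: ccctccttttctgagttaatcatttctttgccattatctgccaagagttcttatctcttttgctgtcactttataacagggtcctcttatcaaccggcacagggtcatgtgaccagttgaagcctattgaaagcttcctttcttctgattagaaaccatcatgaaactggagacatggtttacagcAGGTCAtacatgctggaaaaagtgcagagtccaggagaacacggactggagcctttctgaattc
The octamer of Zfp42 began 186 bases before the start, and 1.6% of the 32851 promoter windows held it. The nuclear receptor core site began 126 bases before the start of Nr0b1 and 64 bases before that of Nr5a2, and 14.0% of windows held it. A Sox-type site lay 101 bases before the start of Nr0b1 and 175 bases before that of the other Nr5a2 window, against 16.5% of windows. No such letters were found in the windows of Esrrb and Tfcp2l1. These matches describe the letters only.

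Values are deposited log2 intensities, on which a difference of 1 is 2-fold. The median of all values was 4.98. Group means were compared with limma over all probe sets, and a result counted as called where it was at least 2-fold with an adjusted p (Benjamini-Hochberg) under 0.05. For counts of genes, the brightest probe set by mean level over the 20 arrays, called representative here, stood for each gene. Of the 18 probe sets, 4 stayed between 2.55 and 5.04 on every array (2 of Tfcp2l1, 1 of Tbx3 and 1 of Nr5a2) and are not described further. The values used here carry no detection calls. Where a group lies in the range of these dim probe sets, its level may be background, so a difference against it is one of intensities, with no fold given, and the change in transcript may be larger. No level is set against that of another probe set.

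The labels of the groups were set beside marker lists. The lists were chosen with earlier results of these data known, so this is no independent check. All 10 germ cell markers were higher in GSC than in ESC, NSC and MEF (13.1%, 14.6% and 15.5% of all genes were called higher). All 10 were lower in gPS cells than in GSC (10.9% of all genes). All 5 embryonic stem cell markers were higher in gPS cells than in GSC (9.1% of all genes). In the neural list 8 of 10 measured markers were lower in GSC than in NSC (12.2% of all genes), and all 22 fibroblast markers were lower in GSC than in MEF (12.9%). Mean correlations of an array with its group ran from 0.979 (gPS replicate 1) to 0.997. GSC replicate 1 had a 3′ minus 5′ Actb difference of 1.25 log2 units, against 0.51 and 0.49 in the other GSC arrays. Without gPS replicate 1 or without GSC replicate 1, the gene counts given below for gPS minus GSC stayed at 6 higher. Those of GSC minus ESC without GSC replicate 1 and of gPS minus ESC without gPS replicate 1 stayed at 7 and 2 lower.

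The first comparison asked which of the factors differed between gPS cells and their source. In gPS minus GSC, 6 of the 7 genes were higher, where 9.1% of all genes were called higher and 10.9% lower. By probe sets 11 of 18 were higher, against 7.41% of all probe sets. The median difference of the 7 genes was 2.13 log2 units, against 0.02 over all genes. Nr0b1, Tfcp2l1 and Prdm14 rose most by the representative probe sets, Zfp42, Tbx3 and Esrrb rose less, and Nr5a2 was not called. This ranking depends on the probe set, since Esrrb rose by 5.94 on 1436926_at and by 3.56 on 1422986_at. Nr0b1 and Prdm14 lay in the range of dim probe sets in GSC, so their rises may be larger. In bulk samples such as these, fewer cells of a type and less RNA per cell cannot be told apart.

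**Figure D1:**
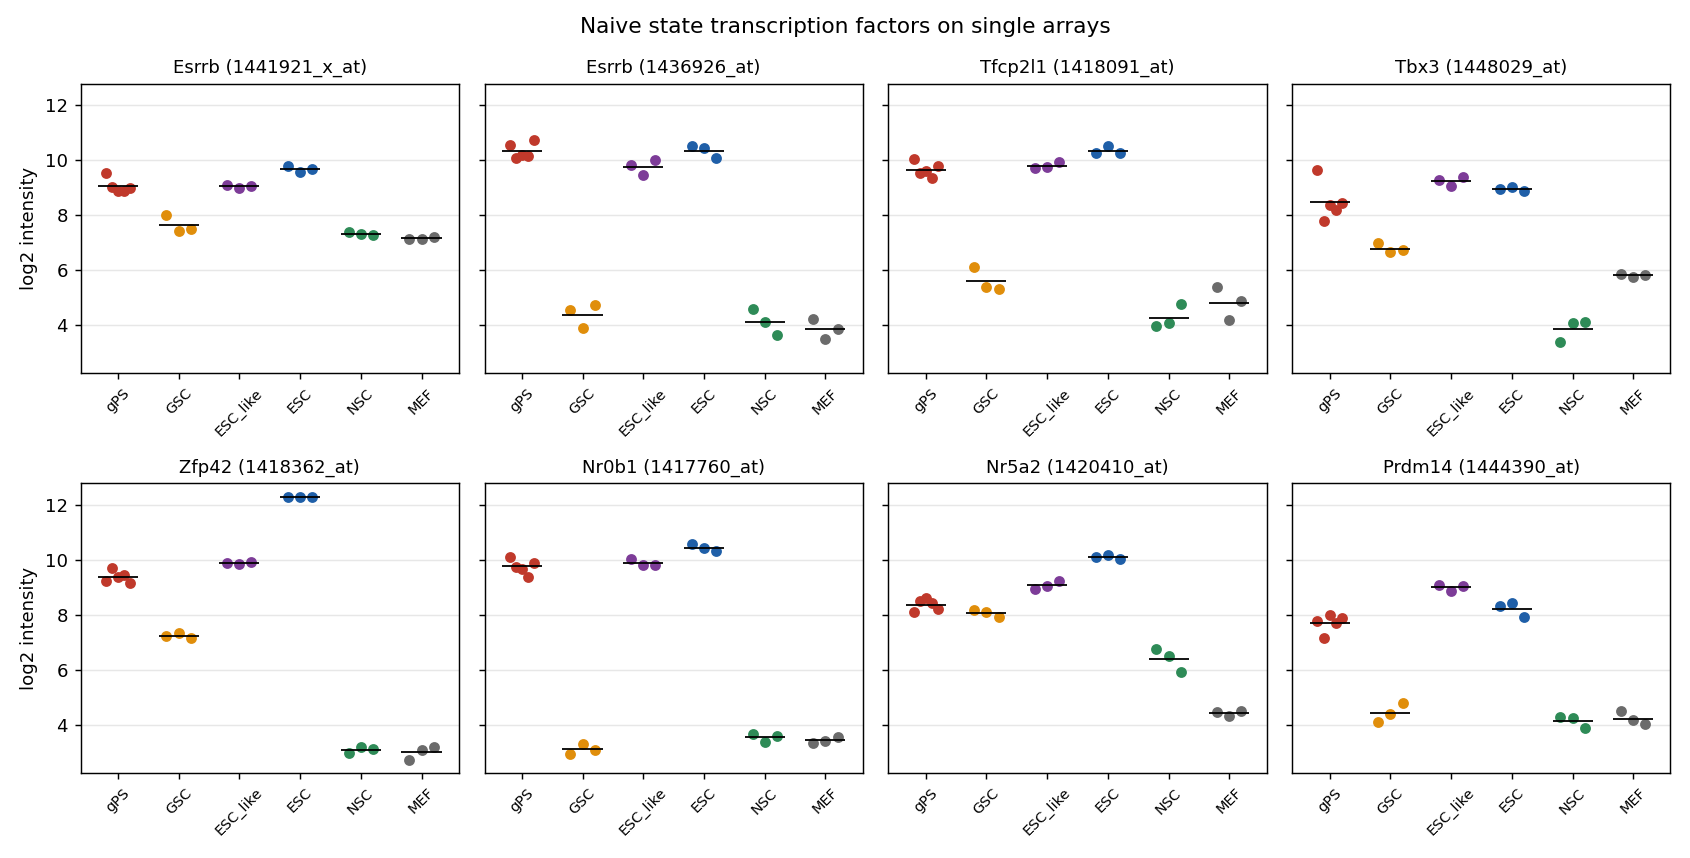
Log2 intensity of the 7 genes by array, with 1 panel for the representative probe set of each gene and 1 more for Esrrb on 1436926_at, and the groups from left to right as gPS, GSC, ESC_like, ESC, NSC and MEF. Points are arrays and bars are group means. Nr0b1 stands in the range of dim probe sets in GSC, NSC and MEF arrays and between 9.38 and 10.55 in the pluripotent groups, while Nr5a2 in GSC arrays, at 7.92 to 8.18, overlaps with the gPS arrays.

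Nr0b1 (Dax1), an X-linked receptor that lacks the usual DNA-binding domain and binds other factors, measured 10.11, 9.73, 9.65, 9.38 and 9.89 in the 5 gPS arrays and 2.95, 3.33 and 3.11 in the GSC arrays. It was high in every gPS array and in the range of dim probe sets in every GSC array, with no overlap. The rise was 6.62 ± 0.14 log2 units (SE, adjusted p = 2e-19). The ESC_like arrays measured 10.01, 9.80 and 9.81 and the ESC arrays 10.55, 10.42 and 10.30. NSC arrays lay at 3.66, 3.37 and 3.61 and MEF arrays at 3.36, 3.42 and 3.56. GSC, NSC and MEF arrays all lay in the range of dim probe sets, so no order is read among them.

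Esrrb, a receptor that binds many enhancers shared with Oct4 and Nanog, was read by 3 probe sets. Its probe set 1436926_at measured 10.54, 10.05, 10.19, 10.13 and 10.73 in gPS arrays and 4.54, 3.89 and 4.72 in GSC arrays. The groups stood far apart, with GSC in the range of dim probe sets, and the difference was 5.94 ± 0.22 log2 units (SE, adjusted p = 5.31e-15). ESC_like arrays measured 9.81, 9.44 and 10.00, ESC arrays 10.50, 10.42 and 10.05, NSC arrays 4.61, 4.13 and 3.66 and MEF arrays 4.22, 3.50 and 3.86. The representative probe set 1441921_x_at measured 9.53, 9.03, 8.89, 8.88 and 8.96 in gPS arrays and 8.01, 7.41 and 7.51 in GSC arrays, a rise of 1.41 ± 0.14 (SE, adjusted p = 3.16e-08). It did not go under 7.11 in any MEF array, so its range was narrower, and 1422986_at gave a rise of 3.56 ± 0.31 (SE, adjusted p = 3.4e-09). All 3 rose, but the size read depended on the probe set.

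Tfcp2l1 measured 10.01, 9.51, 9.60, 9.34 and 9.78 in gPS arrays and 6.11, 5.41 and 5.31 in GSC arrays on 1418091_at. No gPS array came near a GSC array, and the rise was 4.04 ± 0.23 (SE, adjusted p = 6.42e-12), or 16.4-fold. ESC_like arrays were at 9.70, 9.74 and 9.94, ESC arrays at 10.25, 10.50 and 10.25, NSC arrays at 3.96, 4.07 and 4.78 and MEF arrays at 5.40, 4.17 and 4.87. The GSC arrays stood above all NSC arrays, which lay in the range of dim probe sets, by 1.34 (adjusted p = 0.000192). They overlapped with the MEF arrays.

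Prdm14 measured 7.79, 7.17, 7.99, 7.70 and 7.90 in gPS arrays and 4.11, 4.39 and 4.81 in GSC arrays. The groups did not overlap, and the rise was 3.27 ± 0.18 (SE, adjusted p = 3.13e-12). ESC_like arrays were highest, at 9.09, 8.86 and 9.04, and ESC arrays measured 8.31, 8.42 and 7.93. NSC arrays gave 4.28, 4.25 and 3.88 and MEF arrays 4.51, 4.17 and 4.02. GSC, NSC and MEF arrays overlapped and all lay in the range of dim probe sets.

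Zfp42 was the member with the clearest intermediate level in GSC. It measured 9.22, 9.71, 9.36, 9.43 and 9.17 in gPS arrays and 7.23, 7.35 and 7.14 in GSC arrays, a rise of 2.13 ± 0.12 (SE, adjusted p = 4.54e-12) or 4.39-fold, with no overlap. ESC_like arrays measured 9.88, 9.86 and 9.93, and ESC arrays stood highest of all groups at 12.29, 12.26 and 12.27. NSC arrays gave 2.97, 3.19 and 3.15 and MEF arrays 2.74, 3.10 and 3.19. GSC were higher than NSC by 4.14 ± 0.14 log2 units (SE, adjusted p = 2.95e-16) and higher than MEF by 4.23 ± 0.14 (SE, adjusted p = 2.35e-16), and both somatic groups lay in the range of dim probe sets.

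Tbx3, also used in limb and heart development, had 1 array apart. Its probe set 1448029_at measured 9.62, 7.80, 8.35, 8.19 and 8.42 in gPS arrays, with replicate 1 highest, and 6.98, 6.64 and 6.72 in GSC arrays. The groups did not overlap, and the rise was 1.69 ± 0.26 (SE, adjusted p = 1.23e-05). ESC_like arrays measured 9.27, 9.04 and 9.37, ESC arrays 8.93, 9.02 and 8.87, NSC arrays 3.39, 4.09 and 4.14 and MEF arrays 5.85, 5.75 and 5.84. The level was higher in MEF than in NSC, by 1.94 log2 units (adjusted p = 1.16e-05). The other probe sets read rises of 2.73 (1437479_x_at), 1.08 (1445757_at) and 1.03 (1439567_at), and the last of these had overlapping groups. The call of 1445757_at was lost without gPS replicate 1 (0.89) or GSC replicate 2 (0.92). That of 1439567_at was lost without gPS replicate 1 (0.74) or 5 (1.00, just under 2-fold) and without GSC replicate 1 (0.85) or 2 (0.96).

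Nr5a2 (Lrh1), which can drive Pou5f1 and replace Oct4 in reprogramming of mouse cells, was the exception. Its probe set 1420410_at measured 8.09, 8.50, 8.60, 8.43 and 8.20 in gPS arrays and 8.18, 8.09 and 7.92 in GSC arrays, which overlap. The difference of 0.30 (95% interval -0.01 to 0.61, adjusted p = 0.115) was not called, and 1456521_at gave 0.56 (adjusted p = 0.00934), under 2-fold. ESC_like arrays measured 8.95, 9.06 and 9.22, ESC arrays 10.09, 10.15 and 10.03, NSC arrays 6.75, 6.52 and 5.94 and MEF arrays 4.46, 4.34 and 4.51. GSC were higher than NSC by 1.66 log2 units (adjusted p = 2.38e-08) and higher than MEF, which lay in the range of dim probe sets, by 3.63 (adjusted p = 7.12e-14).

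The second comparison set the levels in gPS cells against ESC. Zfp42 and Nr5a2 were lower in gPS cells, so that 2 of 7 genes were called lower, where 2.13% of all genes were. The median difference of the 7 genes was -0.68 log2 units, against 0.02 over all genes, and all 7 representative probe sets had differences below 0. Zfp42 was lower by 2.89 ± 0.12 log2 units (SE, adjusted p = 6.01e-13), 13.4% of the ESC level. Nr5a2 on 1420410_at was lower by 1.72 ± 0.15 (SE, adjusted p = 4.07e-08), 30.3% of the ESC level. In neither gene did a gPS array overlap with an ESC array. Probe sets of Nr5a2 disagreed, since 1456521_at differed by -0.33 (adjusted p = 0.196) and 1449706_s_at by 0.18 (adjusted p = 0.645). With the mean of its probe sets, Nr5a2 differed by -0.39 and was not called.

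Nr0b1 differed by -0.68 (adjusted p = 0.00109), Tfcp2l1 by -0.69 (adjusted p = 0.0423) and Esrrb on 1441921_x_at by -0.61 (adjusted p = 0.00328), all less than 2-fold and not called, with no overlap between the arrays of the groups. Esrrb on 1436926_at differed by 0.00 (95% interval -0.46 to 0.47). Prdm14 differed by -0.51 (adjusted p = 0.0527) and Tbx3 on 1448029_at by -0.47 (adjusted p = 0.238). By probe sets, 2 of 18 were lower and 1 was higher, against 1.99% and 1.74% of all probe sets. The higher one was 1439567_at of Tbx3, at 7.35, 5.48, 5.84, 5.82 and 6.31 in gPS arrays and 5.16, 4.81 and 5.32 in ESC arrays, a rise of 1.07 ± 0.29 (SE, adjusted p = 0.0121). Without gPS replicate 1 it differed by 0.77 and without ESC replicate 2 by 0.92, neither called, and 1437479_x_at of the same gene differed by -0.93 with all arrays and by -1.15 without gPS replicate 1.

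**Figure D2:**
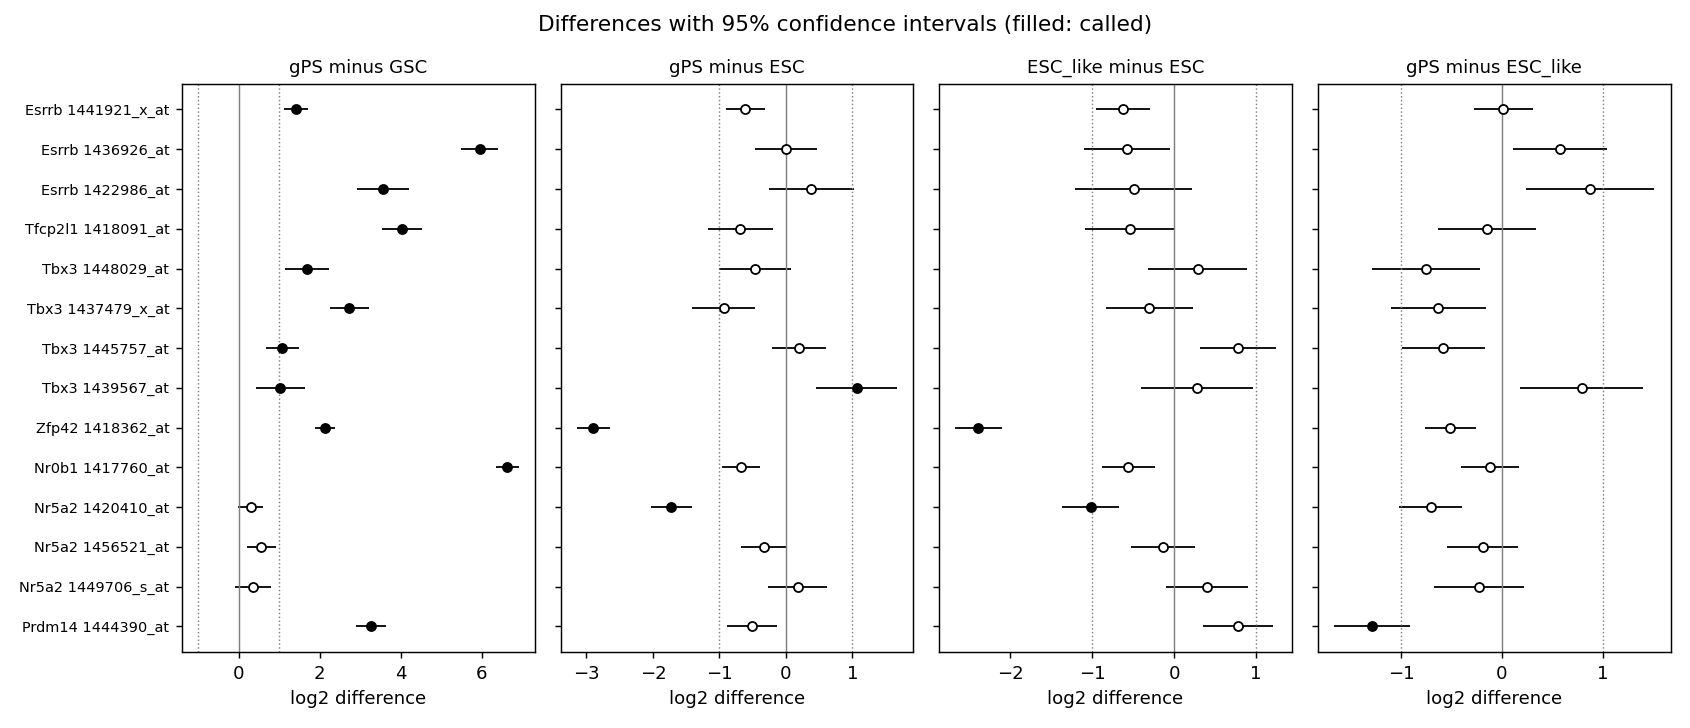
Log2 differences with 95% intervals for the 14 probe sets that are not dim, with 1 panel per comparison, filled points where called and dotted lines at 2-fold. In gPS minus ESC, Zfp42 lies at -2.89 and Nr5a2 at -1.72 on 1420410_at, with the other bright Nr5a2 probe sets at -0.33 and 0.18.

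On the scale where the GSC mean is 0 and the ESC mean is 100 percent of the log2 distance, the mean of gPS cells stood at 90.7 for Nr0b1, 86.5 for Prdm14, 85.4 for Tfcp2l1, 78.5 for Tbx3 and 69.8 for Esrrb by its representative probe set. Zfp42 stood at 42.4 percent, with arrays from 38.3 to 49.0, and Nr5a2 on 1420410_at at 14.9 percent, with arrays from 1.48 to 26.5. The positions of Nr5a2 and Esrrb depended on the probe set. On 1456521_at the Nr5a2 means were 7.85 in GSC, 8.41 in gPS cells and 8.74 in ESC. On 1449706_s_at they were 7.11, 7.46 and 7.28 in the same order. For Esrrb they were 4.38, 10.33 and 10.32 on 1436926_at and 4.69, 8.25 and 7.87 on 1422986_at. The Tbx3 arrays spread from 47.2 to 131 percent. The ESC_like means were 52.6 percent for Zfp42, 49.9 for Nr5a2, 113 for Tbx3 and 121 for Prdm14. The percentages use the ESC and GSC arrays at both ends, so they share them and are a description. The full distance was 7.30 log2 units for Nr0b1, 5.03 for Zfp42, 4.73 for Tfcp2l1 and 3.78 for Prdm14. It was 2.16 for Tbx3 and 2.03 for both Nr5a2 and Esrrb. With distances this unlike, the percentages do not rank the genes by their difference from ESC. Nr0b1 and Prdm14 lay in the range of dim probe sets in GSC, where their 0 percent may be background.

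**Figure D3:**
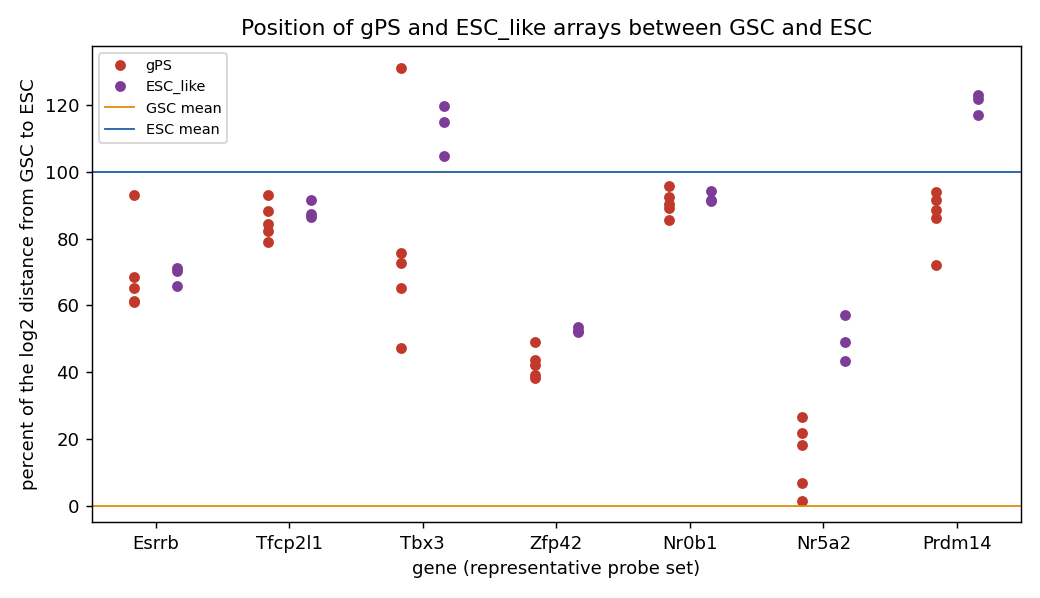
Position of each array on the log2 distance between the GSC mean (0 percent) and the ESC mean (100 percent) for the 7 genes, with gPS arrays beside ESC_like arrays. Each gene is shown by its representative probe set. The gPS arrays of Zfp42 lie at 38.3 to 49.0 percent and those of Nr5a2, on 1420410_at, at 1.48 to 26.5 percent.

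The ESC_like cells, the other testis-derived pluripotent group, were set against gPS cells and against ESC. In gPS minus ESC_like, Prdm14 was lower by 1.29 ± 0.18 log2 units (SE, adjusted p = 2.12e-05), so 1 of 7 genes was called lower, where 3.73% of all genes were, and 1 of 18 probe sets, where 3.3% were. Tbx3 differed by -0.75 (adjusted p = 0.0392), and without gPS replicate 1 by -1.04, which was called. Nr5a2 differed by -0.71 (adjusted p = 0.00138) and Zfp42 by -0.51 (adjusted p = 0.00387), under 2-fold. Nr0b1, Tfcp2l1 and Esrrb on 1441921_x_at differed by -0.12, -0.15 and 0.01. On its other probe sets Esrrb differed by 0.58 (1436926_at, adjusted p = 0.0653) and 0.87 (1422986_at, adjusted p = 0.0428), not called. Without ESC_like replicate 3 the difference on 1422986_at was 1.22, which was called. In ESC_like minus ESC, 2 of 7 genes were lower, against 2.1% of all genes, and 2 of 18 probe sets, against 1.76% of all probe sets. They were Zfp42, by 2.38 ± 0.14 log2 units (SE, adjusted p = 3.09e-11), and Nr5a2, by 1.02 ± 0.17 log2 units (SE, adjusted p = 0.000101). Without ESC replicate 2 the Nr5a2 difference was -0.99 and without ESC_like replicate 1 it was -0.95, neither called, and with the mean of its probe sets it was -0.20. The same 2 genes were called against ESC in both testis-derived groups, and both comparisons use the same ESC arrays. Prdm14 differed by 0.78 (adjusted p = 0.00773), not called.

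Fibroblast markers moved with these comparisons. In gPS minus ESC 15 of 22 were higher, against 2.36% of all genes, and in ESC_like minus ESC 18 of 22 were higher, against 5.11%. In gPS minus ESC_like 16 of 22 were lower, against 3.73%. In gPS minus GSC 8 were higher and 2 lower, against 9.1% and 10.9% of all genes. In GSC minus ESC 13 were higher and 1 lower, against 13.1% and 10.2%. The log2 of their summed level was 12.96 to 13.34 in gPS arrays, 11.86 to 12.21 in GSC arrays, 14.48 to 14.79 in ESC_like arrays, 11.90 to 12.04 in ESC arrays and 16.47 to 16.48 in MEF arrays. Of the 22 markers, the means of 19 in gPS cells, 20 in GSC, 21 in ESC_like cells and 8 in ESC lay above the median of all values. Below it were Pdgfra, Lum and Twist1 in gPS cells, Pdgfrb and Lum in GSC, Lum in ESC_like cells, and 14 markers in ESC, Col1a1, Col3a1, Thy1 and Postn among them. For each of the 7 genes the mean of MEF lay below gPS, ESC_like and ESC. The part of feeder cells in the differences was not tested.

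The GSC were then set against ESC and the somatic cells. In GSC minus ESC all 7 genes were lower, where 10.2% of all genes were, and 10 of 18 probe sets, where 8.89% were. The differences were -7.30 for Nr0b1, -5.03 for Zfp42, -4.73 for Tfcp2l1, -3.78 for Prdm14, -2.16 for Tbx3 and -2.03 for both Esrrb (1441921_x_at) and Nr5a2. Their median was -3.78, while that of all genes was close to 0. Esrrb on 1436926_at differed by -5.94. Nr5a2 was called lower on 1 of its 4 probe sets, with differences from -2.03 to 0.06, and by their mean it differed by -0.76, not called. In GSC minus NSC 4 of 7 genes were higher, against 14.6% of all genes, namely Zfp42, Tbx3 (2.91), Nr5a2 (1.66) and Tfcp2l1 (1.34). For Zfp42, Tbx3 and Tfcp2l1 the NSC arrays lay in the range of dim probe sets. Other Tbx3 probe sets gave 1.19 (1437479_x_at, called), 0.41 (1445757_at) and 0.69 (1439567_at), the last 2 not called. By the mean of its probe sets, dim ones included, Tfcp2l1 differed by 0.52, under 2-fold. In GSC minus MEF 2 of 7 were higher, Zfp42 and Nr5a2, against 15.5% of all genes. Tbx3 (0.97, adjusted p = 0.00806) and Tfcp2l1 (0.79, adjusted p = 0.0159) passed the p threshold there but not 2-fold. Tbx3 passed both without GSC replicate 2 (1.04) and Tfcp2l1 without MEF replicate 1 (1.09). These Tbx3 values are of 1448029_at, and its other probe sets disagreed in direction. They gave -0.24 (1437479_x_at), -0.36 (1445757_at) and 0.13 (1439567_at) in GSC minus MEF, none called.

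Ordered by mean, ESC led in Nr0b1, Tfcp2l1, Zfp42, Nr5a2 and Esrrb (1441921_x_at), and ESC_like cells led in Tbx3 (1448029_at) and Prdm14. The lead was within the spread for Tfcp2l1 (0.54 over ESC_like cells, adjusted p = 0.15) and Tbx3 (0.29 over ESC, adjusted p = 0.517), and other Tbx3 probe sets had ESC or gPS cells first. For Zfp42 the order was ESC, ESC_like, gPS, GSC, NSC and MEF, where all neighbours but NSC and MEF differed at the adjusted p. For Nr5a2 on 1420410_at it was the same order, in which gPS and GSC did not differ beyond their spread. On 1456521_at gPS cells stood above GSC by 0.56 (adjusted p = 0.00934), and ESC, ESC_like and gPS cells did not differ as neighbours. On 1449706_s_at ESC_like cells led, followed by gPS cells, ESC and GSC, with no neighbours among these past the adjusted p. Esrrb had gPS cells first on 1436926_at and 1422986_at, within the spread over ESC.

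**Figure D4:**
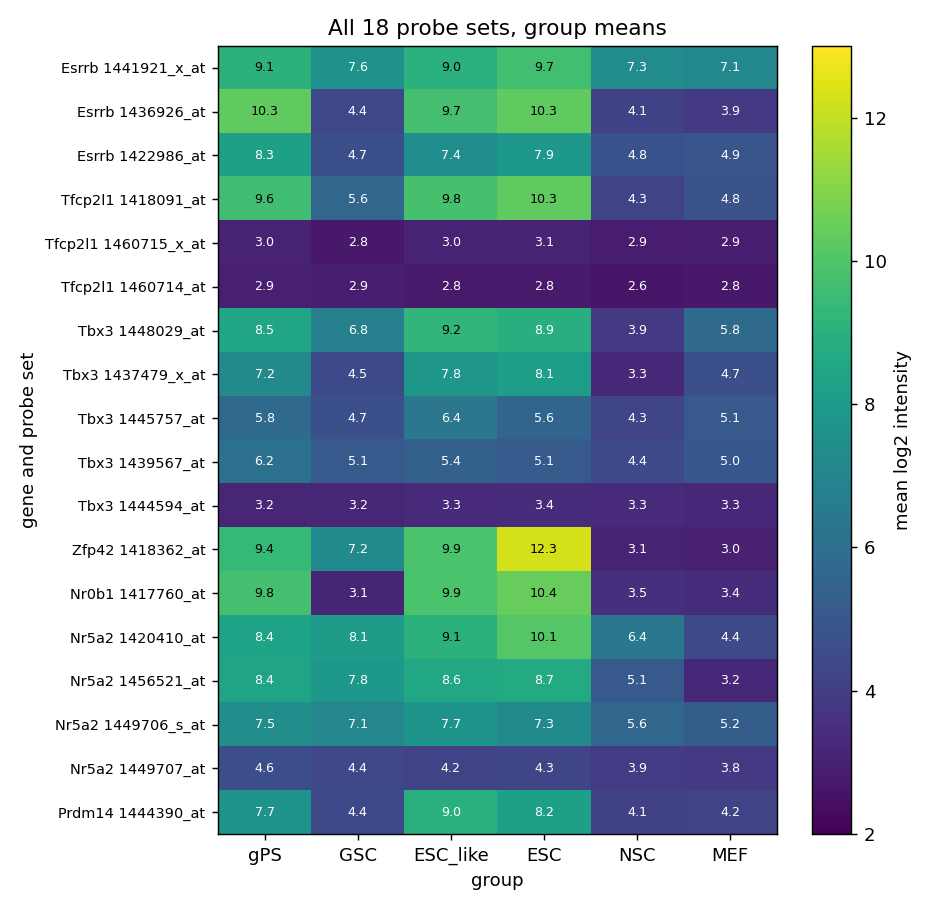
Group means of log2 intensity for all 18 probe sets, as colours with the value written in each cell, probe sets running down and groups across. The 4 dim probe sets stay dark in every group, and the 3 Esrrb probe sets are brighter in gPS cells than in GSC.

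Levels of the 7 genes followed each other over the 20 arrays, with Pearson r from 0.75 (Tbx3 and Nr5a2) to 0.98 (Tfcp2l1 and Nr0b1). The arrays share their 6 groups, so these values describe mainly the group means. The genes most alike were L1td1 and Fgf4 for Nr0b1, Dsg2 and Dnmt3l for Tfcp2l1, Eras and Ooep for Prdm14, Bicral and Rex2 for Zfp42, Rbpj and Rpp40 for Tbx3, Ash2l and Txlng for Nr5a2, and Kat2b and Pigl for Esrrb by its representative probe set, with r between 0.97 and 0.99. For Esrrb on 1436926_at, chosen after its values were seen, they were L1td1 and Apela.

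Other genes of the network came from lists. Of 19 measured naive network partners, 13 were higher and 1 lower in gPS minus GSC, where 9.1% of all genes were higher and 10.9% lower. The median was 2.27, against 0.02 over all genes. The 1 that fell was Stat3, the effector of LIF signalling, by 2.68 ± 0.14 log2 units (SE, adjusted p = 1.75e-12), named after its values were seen. Tdgf1 (8.11), Nanog (7.71), Tet1 (6.85) and Fgf4 (5.85) rose, whereas Zfp281 (-0.02) and Pramel7 (0.09) were not called. In gPS minus ESC 2 were higher, against 2.36% of all genes, Dppa3 (2.84 ± 0.58 SE, adjusted p = 0.00127) and Klf4 (1.45 ± 0.23 SE). Another 2 were lower, against 2.13% of all genes, Tcl1 (-1.73 ± 0.16 SE) and Pramel7 (-1.05 ± 0.14 SE). The Pramel7 means of 3.53 in gPS cells, 3.44 in GSC and 4.59 in ESC lie in the range of dim probe sets and may be background. Dppa3 marks the germ line and the naive epiblast, and Klf4 is a LIF-induced factor.

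Among 16 genes of cofactors and upstream signalling, 7 were higher and 3 lower in gPS minus GSC, against the same 9.1% and 10.9% of all genes, with a median of 0.30, against 0.02. Jak1, the kinase of the LIF receptor, fell by 2.60 ± 0.13 (SE, adjusted p = 7.16e-13). The FGF targets Spry4, Spry2 and Etv5 rose by 2.47, 2.18 and 1.86, and the receptor chains Lifr (-0.03) and Il6st (-0.10) were not called. Against ESC, the Wnt target Axin2 was higher by 1.69 ± 0.27 and Spry4 lower by 1.69 ± 0.29 (SE, adjusted p = 0.000102 and 0.000258).

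Of 17 measured paralogs of the members, Prdm1, the germ cell repressor, was the 1 called in gPS minus GSC (1.28 ± 0.43 SE, adjusted p = 0.0205). With 9.1% of all genes called higher, 1 of 17 is near that share and is not read as a result about the paralogs. The median was 0.12, against 0.02 over all genes. Esrrg, Tbx2, Tbx4 and Tbx20, for example, had means in the range of dim probe sets in both groups, where a change may go unseen. Of 13 measured formative and primed epiblast genes 7 were higher and 4 lower, against 9.1% and 10.9% of all genes, with a median of 1.15, against 0.02. Nodal (5.10) and Otx2 (3.04) rose, and Sox3 (-3.75) and Sox4 (-2.44) fell. Against ESC, Otx2 was lower by 1.68 ± 0.28 (SE, adjusted p = 0.000157).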

How the data were processed

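RNA of 20 mouse cell samples was labelled and hybridised to Affymetrix arrays. The authors deposited a log2 intensity for each probe set, computed with RMA per the submitters' processing notes, and the sample descriptions mention Bioconductor. The sources used here do not state if the 20 arrays went through RMA in 1 run. The table lacked no value, and nothing was rescaled.

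After 64 controls were dropped from 45101 probe sets, 34945 had 1 gene symbol, 932 several and 9160 none. Of those with 1 symbol, 34741 had a gene identifier found in RefSeq, and the RefSeq symbol was used for them. A limma model (version 3.58.1, lmFit and eBayes, R 4.3.3) held 6 group means over the 20 arrays and no covariate. Within a comparison, p-values were adjusted by Benjamini-Hochberg over all probe sets. SE is limma's moderated standard error, and intervals cover 95%. The genes named were the 7 factors, for each the 2 other genes most alike by Pearson r, and, of each list, at most 4 called genes that differed most and 2 uncalled genes that differed least. The members and lists were chosen with earlier results of these data known. In data simulated for gPS minus ESC over 45037 probe sets, 56% of changes of 1 log2 unit and 100% of those of 1.5 were called. A change of 1 lies at the 2-fold threshold itself, which largely sets the first share. The simulated noise was independent, with 1 spread per probe set for all groups, unlike the real arrays. Alternatives were quantile normalization, array weights, other thresholds, other summaries of a gene's probe sets, only the compared groups, a replicate block and each array left out. Python 3.11.15 with pandas 2.3.3 and matplotlib 3.10.9 made the tables and plots.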

Additional observations from a re-analysis of the deposited data

Results flagged for a closer look

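In 3 of 18 probe sets, 1 of the 5 gPS arrays stood far from the others, by the gap to its nearest neighbour over the whole range, for which the 95% limit with 5 arrays is 0.71. The share was 0.766 for Esrrb on 1441921_x_at, where gPS replicate 1 measured 9.53 and the others 8.88 to 9.03. It was 0.785 for Tbx3 on 1437479_x_at, where replicate 1 measured 8.07 and the others 6.89 to 7.15. It was 0.865 for Tfcp2l1 on 1460715_x_at, a dim probe set, where replicate 5 measured 3.29 and the others 2.97 to 3.01. Chance gives such a gap in about 1 in 20 groups, and the 18 groups share arrays.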

How the results depend on the processing

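Of 518 values of member counts under the alternatives, 495 stayed within 1.5 times the main count and 23 did not. The calls in gPS minus GSC and GSC minus ESC held their counts in that sense throughout. In gPS minus ESC, the 1 higher probe set became 0 with array weights, with only the compared groups, at an adjusted p under 0.01 and without gPS replicates 1 and 2 together (added after seeing the data), and leaving out single arrays gave 0 to 1. At 1.5-fold, 6 probe sets and 5 genes were lower, and with a gene's probe sets averaged 1 gene was. In gPS minus ESC_like, 1.5-fold gave 1 probe set higher, 4 probe sets lower and 3 genes lower, and leaving out single arrays gave 0 to 1 probe sets higher, and 1 to 2 lower for probe sets and for genes. In ESC_like minus ESC, 1.5-fold gave 2 probe sets and 1 gene higher, the mean of probe sets gave 1 gene lower, and single arrays left out gave 1 to 2 lower for both. In GSC minus MEF, 1.5-fold gave 4 genes higher. The cause was not tested beyond the alternatives' own construction.

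Signs changed in 18 single values, all near 0. Esrrb on 1436926_at in gPS minus ESC became -0.0080 with quantile normalization, -0.093 with array weights and -0.063 with the replicate block, and ranged from -0.13 to 0.091 with single arrays left out. Esrrb on 1441921_x_at in gPS minus ESC_like became -0.080 with array weights and -0.14 without gPS replicates 1 and 2, with a single-array range of -0.11 to 0.058. Tfcp2l1 in gPS minus ESC_like became 0.0012 with its probe sets averaged. The single-array ranges were -0.22 to 0.21 for Tbx3 on 1439567_at in GSC minus ESC and -0.12 to 0.32 in GSC minus MEF, -0.47 to 0.011 for Tbx3 on 1437479_x_at in GSC minus MEF, and -0.34 to 0.086 for Esrrb on 1422986_at in GSC minus NSC.

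Groups share replicate numbers in the labels, and deviations of same-numbered arrays correlated at -0.17 to 0.25. No reference range was set for these correlations, so they cannot tell whether same-numbered arrays were handled together. With the replicate block 11 member probe sets were higher in gPS minus GSC, as without it. Dim probe sets limit what can be read.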

Other observations

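Of the 14 probe sets that were not dim, gPS replicate 1 was the highest of the gPS arrays on 8 and the lowest on 3. The log2 of the summed neural stem cell markers was 10.23 in this array, 9.27 in gPS replicate 2 and 8.56 to 8.68 in the other gPS arrays. The germ cell sum was 9.40 in replicate 1, 8.77 in replicate 2 and 8.49 to 8.63 in the others. The trophoblast sum was 9.40 in replicate 1, 10.29 in replicate 2 and 10.72 to 10.90 in the others. These sums are of unlogged levels, so the brightest markers weigh most. In gPS cells the means of 5 of 10 neural, 6 of 10 germ cell and 5 of 6 trophoblast markers lay above the median of all values. Below it were Pax6, Olig2, Sox1, Fabp7 and Ptprz1 of the neural list. Tex101, Gfra1, Taf7l and Sohlh1 of the germ cell list and Elf5 of the trophoblast list were also below it. The part of these marker levels in the Tbx3 and Esrrb levels of gPS replicate 1 was not tested.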
